A study of Rattus norvegicus with 12 samples.

Results

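The interleukin 1 family and its inhibitors were followed as 10 genes of rat epidermal keratinocytes: the ligands Il1a, Il1b, Il18, Il33 and Il36a, the receptor antagonist Il1rn, the receptors Il1r1, Il1r2 and Il1rap, and the protease gene Casp1. They were chosen by name in the deposited table, ignoring suffixes for predicted genes, with Il36a found under its older name Il1f6. These 10 of 21405 named genes have 11 of the 22523 probes on the array; Il33 has 2 probes and each other gene has 1. All cultures were of the REK line, an established rat epidermal keratinocyte line, grown alone without feeder cells on collagen-coated inserts and raised to air 3 days after plating. The 4 groups of 3 cultures were a mock-irradiated control without betaine, 10 mM betaine with mock irradiation, 30 mJ/cm2 UVB without betaine, and betaine with UVB. Betaine, an organic osmolyte, was present for 11 days from day 4, and RNA was taken 24 h after irradiation from cultures 2 weeks old. A single cell line limits the model to keratinocytes of 1 origin, and nothing in the labels tells whether cultures A, B and C of a group were grown independently; the p-values cover the spread among these 3 cultures, which may be technical.

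Interleukin 1α, the product of Il1a, is stored in keratinocytes and released when they are damaged; it signals through a receptor made of the Il1r1 and Il1rap products. The Il1rn product occupies that receptor without signalling, and the Il1r2 product binds the ligand as a decoy. Interleukin 1β and the Il18 product are made as inactive precursors that caspase 1, the product of Casp1, can cleave. The Il33 product is a nuclear alarmin of epithelial cells, and the Il36a product acts through a separate receptor that also uses the Il1rap product. UVB is a known trigger of interleukin 1 release in skin.

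Expression was measured on Illumina RatRef-12 arrays, and all levels are log2 values after background correction and quantile normalization between arrays. On each array 10369 to 10768 probes were detected, that is, had a detection p-value under 0.05. A gene was tested if its probe was detected on at least 3 of the 12 arrays, which left 10937 genes. A gene is called changed at a Benjamini-Hochberg adjusted p under 0.05 over all of these, from 1 limma model of the 12 arrays. Keratinocyte markers bore out the label, with 8 of 8 on the array detected on all arrays, Krt14, Krt10 and Ivl among them. Their summed level was 16.90 to 16.92 in control, 16.81 to 16.87 with betaine, 16.78 to 16.82 after UVB and 16.82 to 16.84 with betaine and UVB. Of the leukocyte markers, Ptprc, Itgam and Cd163 were undetected on every array while Cd14, Cd68 and Aif1 were detected on all, with summed levels of 9.76 to 10.11 in control, 9.80 to 9.93 with betaine, 9.96 to 10.27 after UVB and 9.73 to 9.97 with both. Cd3e, listed for T cells, and Pmel and Mlana, listed for melanocytes, were also detected on all arrays, while Cd4, Cd8a, Cd3d and Tyr were undetected on every array. Which cells gave these signals, and their part in the results below, was not tested. In whole-culture RNA, fewer cells of a type and less RNA per cell cannot be told apart.

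Of the 10 members 9 passed the detection filter, namely all but Il1rap. Control culture A stood apart in several of them: its level was lower than the mean of controls B and C by at least 1 log2 unit in 4 of these 9 genes, against 85 of 10937 genes (0.777%). The differences were −1.62 for Il36a, −1.24 for Il18 and −1.21 for Il1a, and Il1rn was the other. The largest such differences were in genes outside the members, Xkrx (−2.56), LOC499757 (−2.45) and Tmem86a (−2.33). Over all tested genes the mean correlation of control A with the other arrays was 0.990, where the 12 arrays ran from 0.986 to 0.992. That correlation cannot show whether a small share of genes is shifted. The main results that rest on the control group are given with and without culture A.

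**Figure D1:**
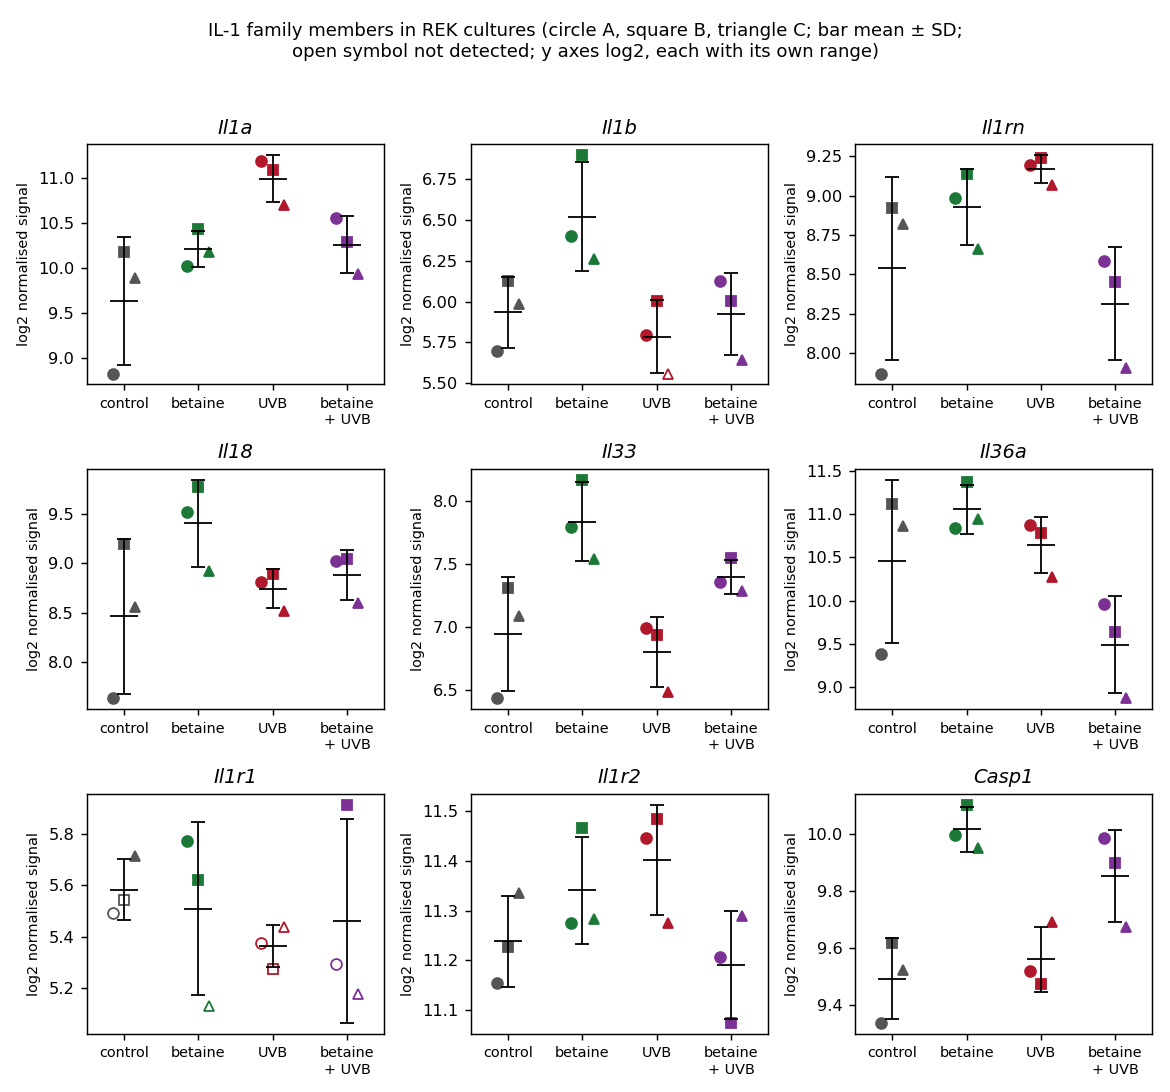
Log2 level of each tested member (vertical axes) in each of the 12 cultures, by group (horizontal axes); circles, squares and triangles are cultures A, B and C, open where undetected, and bars are group means with the SD. Il1a stands highest in the 3 UVB cultures, 10.70 to 11.19, and Il36a lowest in the betaine with UVB cultures B and C and in control A, 8.87 to 9.64.

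Il1a and Il36a are the members called in different UVB contrasts, and Il1rn is the antagonist of the first, so the promoter windows of these 3 genes are shown. They are RefSeq sequences of the GRCr8 build, 300 bases long and mostly upstream of the annotated start, 5′ to 3′ on the gene's strand, with capitals marking matches to 4 motifs searched on both strands. The windows are chr3:136989968-136990267 on the minus strand for Il1a, chr3:27394896-27395195 on the plus strand for Il36a and chr3:27520072-27520371 on the plus strand for Il1rn.
Il1a: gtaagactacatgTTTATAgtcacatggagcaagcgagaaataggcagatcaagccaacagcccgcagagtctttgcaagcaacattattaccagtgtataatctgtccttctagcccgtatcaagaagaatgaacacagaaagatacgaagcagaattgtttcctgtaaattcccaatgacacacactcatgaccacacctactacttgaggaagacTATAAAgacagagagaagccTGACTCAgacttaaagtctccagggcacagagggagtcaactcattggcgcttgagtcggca
Il36a: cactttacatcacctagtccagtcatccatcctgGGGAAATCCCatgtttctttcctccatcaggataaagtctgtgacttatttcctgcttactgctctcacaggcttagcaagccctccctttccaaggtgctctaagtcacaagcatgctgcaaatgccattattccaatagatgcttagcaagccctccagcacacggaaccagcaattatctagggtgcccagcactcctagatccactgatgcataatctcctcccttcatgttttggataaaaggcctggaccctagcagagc
Il1rn: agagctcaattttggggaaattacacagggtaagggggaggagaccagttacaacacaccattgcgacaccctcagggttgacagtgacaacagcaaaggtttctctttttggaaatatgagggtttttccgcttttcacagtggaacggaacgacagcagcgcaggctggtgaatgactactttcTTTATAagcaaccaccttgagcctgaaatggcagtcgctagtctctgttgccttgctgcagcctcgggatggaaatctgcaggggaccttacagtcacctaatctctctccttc

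The motifs were TGANTCA for AP-1, GGGA and CC parted by 4 bases of any kind for NF-kB, TTGCNNAA for C/EBP and TATAAA for the TATA box, and no matches overlapped in these 3 windows. Il1a holds an AP-1 match whose first base is at −12 and TATA matches at −32 on the gene's strand and −237 on the other. Il36a holds an NF-kB match at −216, and Il1rn a TATA match at −64 on the other strand. Such matches occur widely: of 33469 rat promoter windows, 7.33% hold the AP-1 letters, 19.3% the NF-kB letters, 10.6% the C/EBP letters and 14.2% the TATA letters. In the GRCr8 annotation Il1a and Il1b are neighbours on chromosome 3 with no protein-coding gene between them. Il1rn lies in another stretch of chromosome 3, with Il36a, Il36b, Il36rn and Il1f10 between Il36g and Il1rn.

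UVB without betaine raised Il1a. Its level was 8.82, 10.18 and 9.89 in control cultures A, B and C, a mean of 9.63 ± 0.72 (SD, n = 3). After UVB it was 11.19, 11.10 and 10.70, a mean of 10.99 ± 0.26. Every UVB culture was higher than every control. The rise was 1.36 ± 0.29 log2 units (SE), with a 95% interval of 0.73 to 2.00 log2 units and an adjusted p of 0.0199, which is a 2.57-fold change. Without control A the rise was 0.96 and was still called (adjusted p = 0.0267); it was 1.27 without UVB A (adjusted p = 0.0747) and 1.31 without UVB B (adjusted p = 0.0715), neither of which passed. Il1a was the single call among the 9 tested members, and 4.96% of all tested genes were called in this comparison.

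With betaine the level of Il1a was 10.03, 10.43 and 10.17 in unirradiated cultures. In the cultures given betaine and UVB it was 10.56, 10.29 and 9.93, which overlaps the unirradiated betaine group and lies wholly below the UVB group. The UVB effect in betaine-grown cultures was 0.05 ± 0.29 (adjusted p = 0.948), with an interval of −0.59 to 0.69. Betaine differed from control by 0.58 ± 0.29 (adjusted p = 0.490), or by 0.18 without control A. Betaine with UVB differed from UVB alone by −0.73 ± 0.29 (adjusted p = 0.241). Averaged over the betaine states, Il1a rose by 0.71 ± 0.21 after UVB (adjusted p = 0.0479), a comparison in which 11.2% of tested genes were called. That call held without control A, control B or betaine with UVB C in turn, and not without any other single culture, where adjusted p ran from 0.0518 to 0.116.

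Il36a fell after UVB in betaine-grown cultures, with no call after UVB alone. It stood at 10.84, 11.38 and 10.95 with betaine and at 9.96, 9.64 and 8.87 with betaine and UVB, so the groups did not overlap. It fell by 1.57 ± 0.40 log2 units, to 0.338 of the betaine level (95% interval −2.44 to −0.69, adjusted p = 0.0391). In this comparison Il36a was the single member called, against 6.14% of all tested genes. Leaving out control A, which is not in the contrast but enters the shared spread, gave the same size with an adjusted p of 0.00387. The call did not hold without betaine A (0.0757), betaine B (0.138), betaine C (0.0541), UVB A (0.0539), UVB B (0.0559), betaine with UVB B (0.0853) or betaine with UVB C (0.164).

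In the other groups Il36a was at 9.38, 11.12 and 10.87 in control and 10.88, 10.78 and 10.28 after UVB. The sign of the difference between these groups turned on control A: UVB minus control was 0.19 ± 0.40 (adjusted p = 0.864) over all cultures and −0.35 without control A. Every culture given betaine and UVB was below every UVB culture, and the difference of −1.16 ± 0.40 was not called (adjusted p = 0.194). Averaged over the betaine states, the UVB effect on Il36a was −0.69 ± 0.28 (adjusted p = 0.157). It was called in 1 of 19 alternative fits, that without control A, at −0.96 ± 0.19 (adjusted p = 0.00848). Over these alternatives the adjusted p ran up to 0.311.

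Il1rn, the antagonist, had its levels in opposite order in the 2 UVB contrasts, with no call in either. It was at 7.87, 8.92 and 8.82 in control and at 9.19, 9.24 and 9.07 after UVB. With betaine it was at 8.98, 9.14 and 8.66, and with betaine and UVB at 8.58, 8.45 and 7.90. All UVB cultures were thus above all controls, and all cultures given betaine and UVB were below all those given betaine. The change was 0.63 ± 0.25 (adjusted p = 0.214) after UVB alone and −0.62 ± 0.25 (adjusted p = 0.199) after UVB with betaine. Without control A the first was 0.30 ± 0.19 (adjusted p = 0.514) and the second kept its size (adjusted p = 0.0552). Betaine with UVB against UVB alone gave −0.86 ± 0.25 (adjusted p = 0.143), which was called without control A (same size, adjusted p = 0.0420). No member was called in that comparison over all 12 arrays, where 0.887% of tested genes were.

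The UVB effects without and with betaine were then compared directly. Subtracting the effect without betaine from that with it gave the interaction, which was −1.31 ± 0.41 for Il1a, −1.76 ± 0.57 for Il36a and −1.25 ± 0.36 for Il1rn (limma, adjusted p = 0.574 each). For the decoy receptor gene Il1r2 it was −0.31 ± 0.14 (adjusted p = 0.601). None of the 9 members passed, and 0% of tested genes did; by limma, 880 genes had an unadjusted p under 0.05, 4 of them members. Without control A the 3 values were −0.91, −1.22 and −0.91, with an adjusted p of 0.884 each. The median interaction of the 9 members was −0.45, beside 0.02 for all tested genes.

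**Figure D2:**
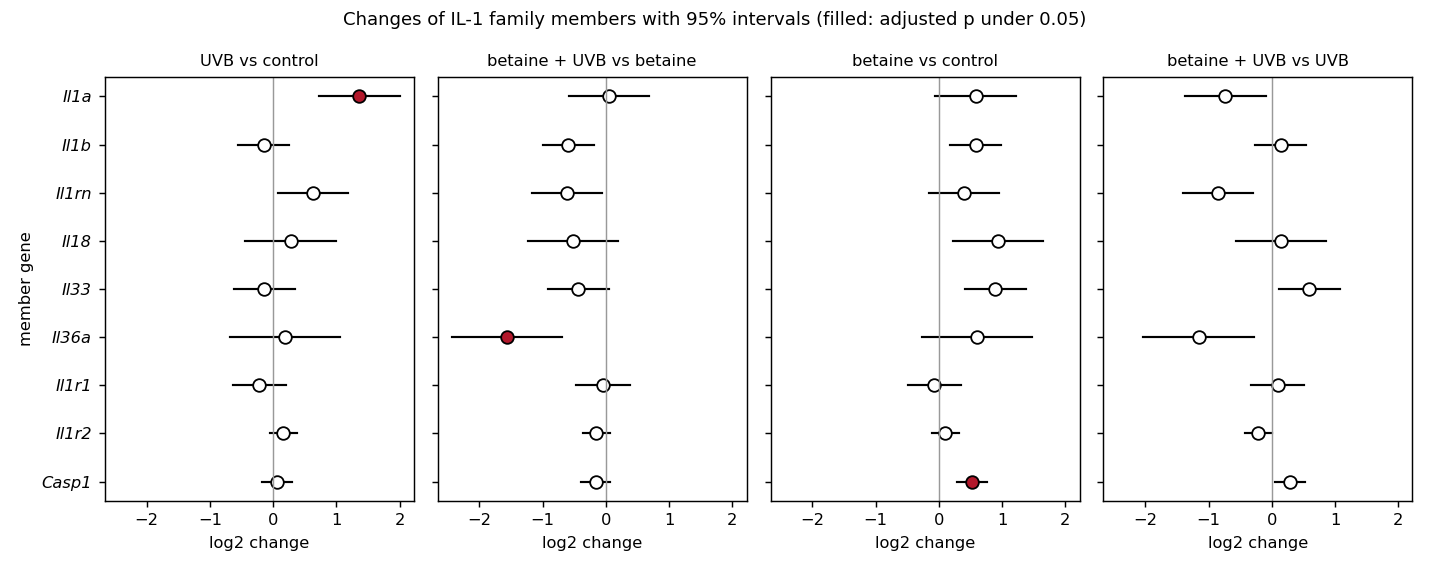
Change of each tested member (log2, horizontal axes) in 4 comparisons of 2 groups, with its 95% interval; filled points are called at an adjusted p under 0.05. Il1a lies at 1.36 for UVB vs control and 0.05 for UVB in betaine-grown cultures, while Il36a lies at 0.19 and −1.57.

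Levels of Il1a and Il36a deviated from their group means together although their group means differed. Over the 12 arrays these deviations had a correlation of 0.99 between Il1a and Il36a, and of 0.97 without control A. Among Il1a, Il1b, Il1rn, Il18, Il33 and Il36a the correlations ran from 0.76 to 0.99, and without control A from 0.64 to 0.97. The median correlation of Il1a with all tested genes was −0.07, but high correlations were not limited to these members. Over the 12 arrays, from 5.92% (for Il1rn) to 7.42% (for Il33) of all tested genes had a correlation over 0.75 with the member. Without control A the shares ran from 3.51% (for Il1a) to 6.19% (for Il33). The arrays share their normalization and the cultures their history, and the part of either in these correlations was not tested. The difference between Il1a and another member was therefore taken within each array, which removes what the 2 genes share; its sign has no meaning because probes differ in brightness, and only its shift between cultures is read.

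The Il1a minus Il36a difference was −0.56, −0.94 and −0.98 in control and −0.82, −0.95 and −0.77 with betaine. After UVB it was 0.31, 0.31 and 0.42, and with betaine and UVB 0.60, 0.65 and 1.06. The 6 irradiated cultures were thus all above the 6 unirradiated ones, by 1.39 log2 units on average. Control A, at −0.56, was the unirradiated culture nearest the irradiated ones, and the other unirradiated cultures ran from −0.98 to −0.77. The same separation was found with each of 4 other normalizations, the authors' processed values among them (shift of 1.21). For Il1a minus Il1rn the unirradiated cultures ran from 0.95 to 1.51 and the irradiated ones from 1.63 to 2.02, a shift of 0.70. These differences were singled out after the values were seen and carry no test. Of 36 differences between tested members, 3 (8.33%) separated irradiated from unirradiated cultures, all of them with Il1a. The third was Il1a minus Il1b, which did not separate them with the authors' processed values. Of the differences from each of 10936 other genes, 4.22% did for Il1a, 2.56% for Il1b, 0.283% for Il36a and 0.219% for Il1rn. Each of these shares is for 1 gene against all others, so none is a direct match for the 8.33% over all member pairs. By its own level no member separated the 6 from the 6, while 5.84% of tested genes did.

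**Figure D3:**
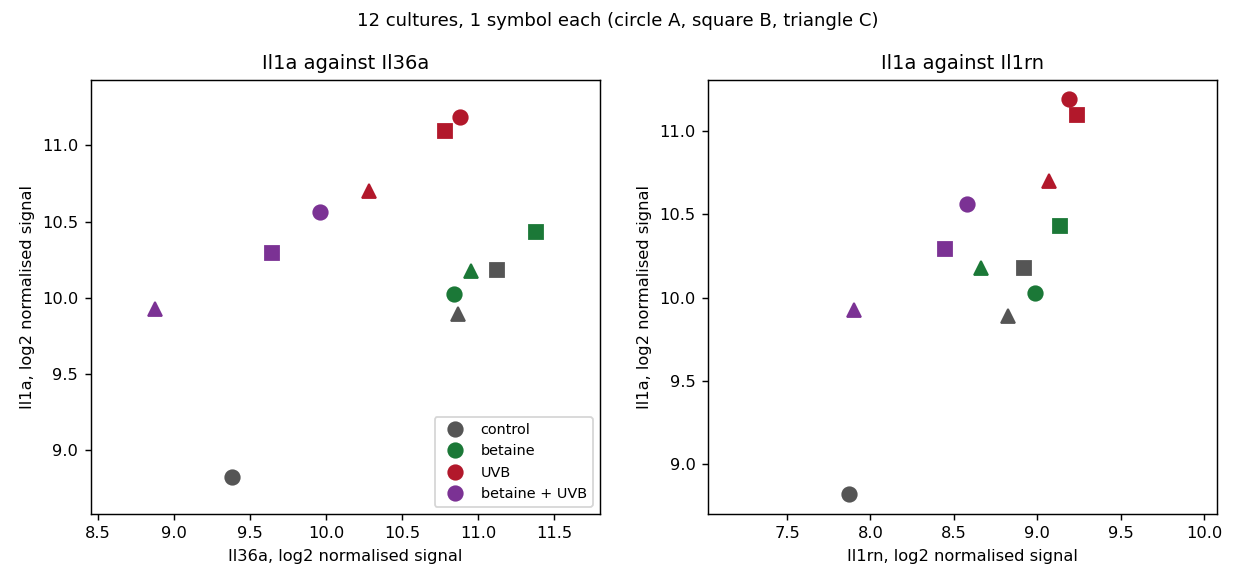
Log2 level of Il1a (vertical axes) against that of Il36a (left) and Il1rn (right), 1 symbol per culture, coloured by group. In the left panel the irradiated cultures lie along 1 diagonal band and the unirradiated ones along another: Il1a minus Il36a lies between −0.98 and −0.56 in the unirradiated cultures and between 0.31 and 1.06 in the irradiated ones.

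Betaine raised Casp1, the gene of the protease that processes the Il1b and Il18 products. Its level was 9.34, 9.62 and 9.52 in control and 9.99, 10.10 and 9.95 with betaine. After UVB it was 9.52, 9.47 and 9.69, and with betaine and UVB 9.99, 9.90 and 9.67. The betaine cultures were above all controls, and betaine with UVB overlapped UVB alone only through culture C of each. Averaged over the UVB states the rise was 0.41 ± 0.076, 1.33-fold (95% interval 0.24 to 0.57, adjusted p = 0.0147), and it was called without each culture in turn, control A included (0.37, adjusted p = 0.0304).

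In unirradiated cultures alone Casp1 rose with betaine by 0.52 ± 0.11 (adjusted p = 0.0457), the single member called where 0.896% of tested genes were. That call held without UVB C and not without any other single culture, where adjusted p ran from 0.0525 to 0.195. In irradiated cultures the difference was 0.29 ± 0.11 (adjusted p = 0.213). UVB moved Casp1 by 0.07 ± 0.11 without betaine (adjusted p = 0.813) and by −0.16 ± 0.11 with it (adjusted p = 0.443), and the interaction was −0.23 ± 0.15 (adjusted p = 0.723).

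Il33 also rose with betaine when both UVB states were averaged. It was at 6.43, 7.30 and 7.08 in control and at 7.79, 8.16 and 7.54 with betaine. After UVB it was at 6.99, 6.93 and 6.48, and with betaine and UVB at 7.35, 7.54 and 7.28. Betaine cultures were above their matched no-betaine cultures in both UVB states without overlap. The averaged rise was 0.74 ± 0.16 log2 units, 1.68-fold (95% interval 0.40 to 1.09, adjusted p = 0.0256), and Il33 and Casp1 were the 2 members called where 3.25% of tested genes were. It was 0.62 without control A (adjusted p = 0.0326) and 0.27 with the authors' processed values (adjusted p = 0.0310). It was not called without betaine A (0.0531), UVB C (0.0611) or betaine with UVB A (0.0531), B (0.0719) or C (0.0547). Within 1 UVB state the difference was 0.89 ± 0.22 without UVB (adjusted p = 0.110; 0.64 without control A, adjusted p = 0.302) and 0.59 ± 0.22 after it (adjusted p = 0.218). The other Il33 probe was undetected on every array.

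Il18 and Il1b, whose products caspase 1 can process, were highest in the betaine group without a call. Il18 was at 7.63, 9.20 and 8.56 in control, 9.52, 9.78 and 8.92 with betaine, 8.81, 8.89 and 8.52 after UVB, and 9.02, 9.04 and 8.59 with both. All groups of Il18 overlapped control, whose spread was 0.79 (SD, n = 3). Betaine minus control was 0.94 ± 0.33 (adjusted p = 0.273), and 0.53 without control A. Il1b was at 5.70, 6.13 and 5.98 in control, 6.40, 6.90 and 6.26 with betaine, 5.79 ± 0.22 (mean ± SD, n = 3) after UVB, and 5.92 ± 0.25 with both. The betaine cultures were above all others for Il1b, which was dim throughout and undetected in UVB culture C. Betaine minus control was 0.58 ± 0.19 for Il1b (adjusted p = 0.235), and 0.47 without control A. UVB in betaine-grown cultures gave −0.60 ± 0.19 (adjusted p = 0.0880), and UVB averaged over the betaine states −0.37 ± 0.13 (adjusted p = 0.0995). Without betaine C both were called, at −0.72 (adjusted p = 0.0448) and −0.44 (adjusted p = 0.0488).

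The receptor genes moved little or were too dim to read. Il1r2, the decoy, was at 11.15 to 11.34 in control, 11.27 to 11.47 with betaine, 11.28 to 11.48 after UVB and 11.07 to 11.29 with both, and its largest difference between 2 groups was −0.21 ± 0.096 for betaine with UVB against UVB (adjusted p = 0.289). Its intervals in the 4 comparisons of 2 groups lay between −0.42 and 0.37. Il1r1, the signalling receptor, was detected on 4 of 12 arrays, none of them in the UVB group, with levels of 5.13 to 5.91. No difference of Il1r1 was called. Il1rap, the shared accessory chain, was not detected on any array and was not tested.

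Ordered by the median over the 9 tested members, the changes were 0.58 for betaine against control (8 of 9 positive), 0.16 for UVB against control (6 of 9), 0.10 for betaine with UVB against UVB (5 of 9) and −0.44 for UVB in betaine-grown cultures (1 of 9). The medians over all tested genes were 0.00, −0.02, 0.00 and −0.01. Without control A the first median was 0.18 (8 of 9 positive) and that of UVB against control was −0.14 (3 of 9 positive), while the other 2 do not use the control group. These comparisons share groups, so the medians are not independent of each other. Il1a, Il1b, Il1rn, Il18, Il33 and Il36a deviated from their group means together, so the members are not independent either and the counts carry no test.

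The genes with the level pattern most like a called member over the 12 arrays, by Pearson correlation and as a description, were Defb1 (0.98), Cyp3a9 (0.97) and Rnf39 (0.97) for Il1a. For Il36a they were Slurp1 (0.98), Tob1 (0.97) and Slurp2 (0.97). Il33 was most like Dnah1, Gpcpd1 and Nrdc (0.95 each), and Casp1 was most like Rwdd3 (0.95), Fmr1nb (0.93) and LOC497816 (0.93).

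Of 5 other ligands and antagonists of the family, 4 were tested and none was called in any comparison over the 12 arrays. Their median change was 0.61 for betaine against control and −0.75 for UVB in betaine-grown cultures, beside 0.00 and −0.01 over all genes, and the first was 0.10 without control A. Il36g, a sister ligand of Il36a, gave −1.13 ± 0.47 for betaine with UVB against UVB (adjusted p = 0.255), and control A differed from the mean of B and C by −1.82. Il36b gave −0.75 ± 0.29 for UVB in betaine-grown cultures (adjusted p = 0.169). Without control A that fall was called (adjusted p = 0.0239), where 727 of 10937 tested genes were. The averaged UVB effect on Il36b was then called too, at −0.46 ± 0.13 (adjusted p = 0.0429), where 1233 tested genes were. Over all arrays this averaged effect was −0.26. Il1f10 gave 0.96 ± 0.37 for betaine against control (adjusted p = 0.356), and 0.49 without control A. Il18bp, which encodes the interleukin 18 binding protein, differed in the other direction, by −0.42 ± 0.15 (adjusted p = 0.291), and by −0.43 without control A. Of 7 other receptors of the family 3 were tested (Il1rl2, Sigirr and Il1rapl2), and none was called.

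**Figure D4:**
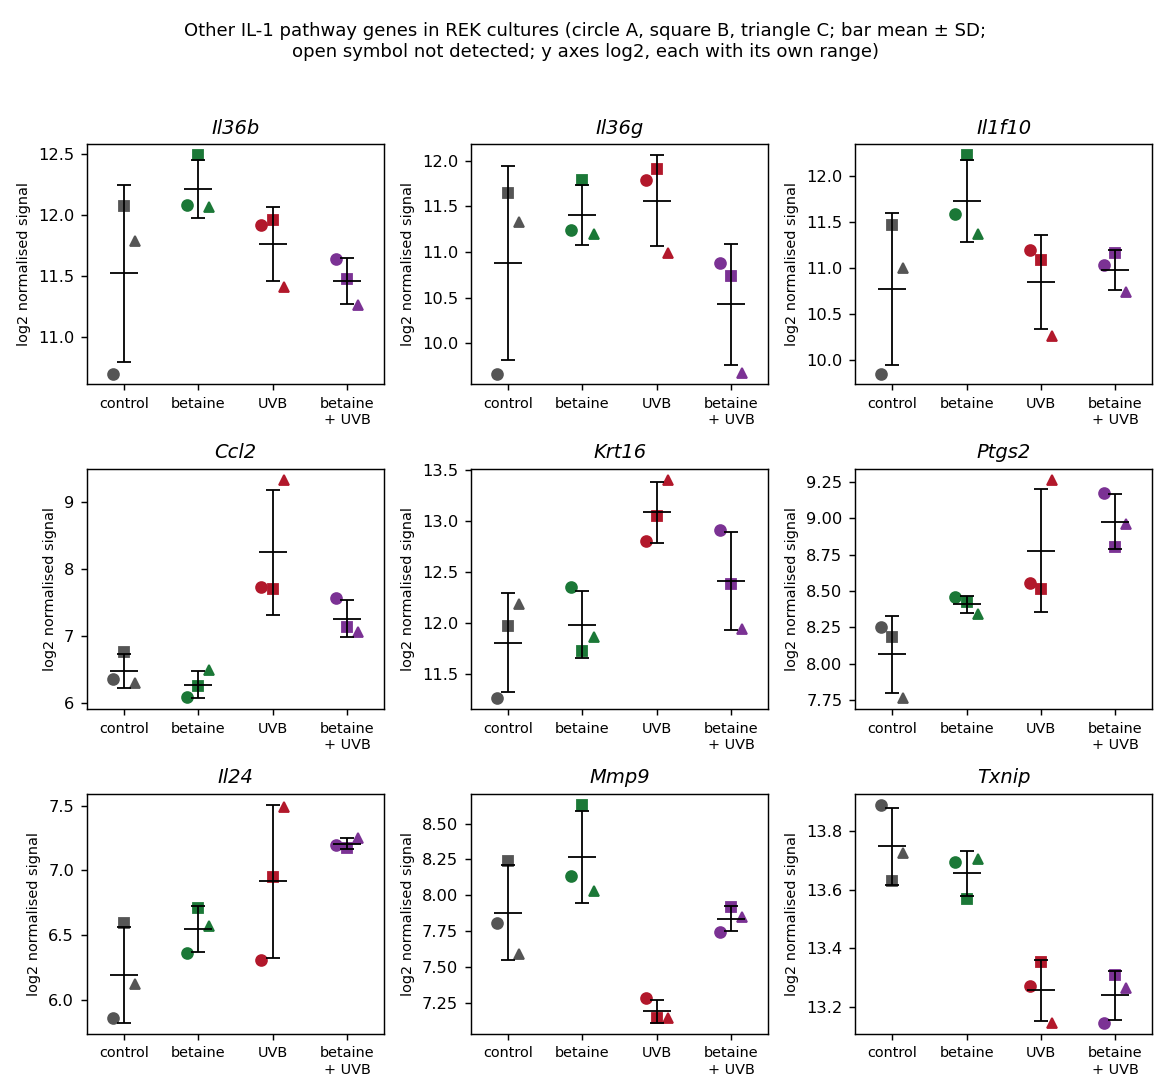
Log2 level of pathway genes outside the 10 members (vertical axes) in each of the 12 cultures, by group; circles, squares and triangles are cultures A, B and C, open where undetected, and bars are group means with the SD. Ccl2 and Krt16 rose by 1.78 and 1.28 after UVB alone, and Txnip fell by 0.49.

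Among 27 listed interleukin 1 target genes of keratinocytes, 17 were tested, and after UVB alone 2 rose and 1 fell, where 4.96% of all tested genes were called. The chemokine gene Ccl2 rose by 1.78 ± 0.35 (adjusted p = 0.0123) and the stress keratin gene Krt16 by 1.28 ± 0.28 (adjusted p = 0.0229), and the gelatinase gene Mmp9 fell by 0.69 ± 0.17 (adjusted p = 0.0421). Ccl2 was called without each culture in turn (1.72 without control A, adjusted p = 0.0448). Krt16 was not called without control A (1.01, adjusted p = 0.0786), control B, UVB B or UVB C, with adjusted p up to 0.0980. Mmp9 was called without control C, betaine B or betaine C and in no other fit with a culture left out, with adjusted p up to 0.133 (0.0849 without control A). Their list's median was 0.38, beside −0.02 for all genes. None was called after UVB in betaine-grown cultures, where the median was 0.29. Averaged over the betaine states, where 11.2% of all tested genes were called, 5 rose and 1 fell: Ccl2 (1.38 ± 0.25), Krt16 (0.85 ± 0.20), the prostaglandin synthase gene Ptgs2 (0.64 ± 0.14), the cytokine gene Il24 (0.69 ± 0.18) and the superoxide dismutase gene Sod2 (0.31 ± 0.091) rose, and Mmp9 fell by 0.56 ± 0.12. Ccl2, Krt16, Ptgs2 and Mmp9 were called without each culture in turn. Il24 was called in 5 of these 12 fits and Sod2 in 1, and without control A their adjusted p was 0.0538 and 0.0891. Krt17, a further stress keratin gene, was called without control A (0.62, adjusted p = 0.0295), where 1233 of 10937 tested genes were. Mmp9 rose with betaine by 0.52 ± 0.12 averaged over the UVB states (adjusted p = 0.0414), where 3.25% of all tested genes were called; that call held in 2 of the 12 fits that left out a culture, and not without control A (adjusted p = 0.0689).

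In the inflammasome and processing list, 14 of 19 genes were tested, and Txnip, an arrestin-like protein that can bind the sensor NLRP3, was the single call over the 12 arrays in UVB vs control, UVB in betaine-grown cultures and UVB averaged over the betaine states (4.96%, 6.14% and 11.2% of all tested genes). It fell by 0.49 ± 0.094 without betaine (adjusted p = 0.00985) and by 0.42 ± 0.094 with it (adjusted p = 0.0208). The first call held without each culture in turn, and the second did not without betaine A, betaine with UVB A or betaine with UVB C, with adjusted p up to 0.0961. Without control A the kinase gene Nek7 was called lower too, by −0.88 after UVB alone (adjusted p = 0.0335). Nek7 was also called at −0.57 after UVB averaged and −0.65 with betaine averaged, and the adaptor gene Pycard at −0.30 after UVB averaged. That fit called 360 of 10937 tested genes for UVB alone, 1233 for UVB averaged and 324 for betaine averaged. Nlrp3 itself was not detected on enough arrays to be tested. Of 19 receptor-proximal signalling genes 14 were tested and none was called over the 12 arrays; without control A the kinase gene Irak4 was called lower with betaine averaged over the UVB states (−0.28, adjusted p = 0.0458). Of 14 genes of NF-kB subunits and inhibitors 9 were tested, and 1 was called after UVB averaged over the betaine states, where 11.2% of all tested genes were. It was Zc3h12a, which encodes an RNase that degrades cytokine transcripts, and it rose by 0.42 ± 0.11 (adjusted p = 0.0250). Zc3h12a was called in 7 of the 12 fits that left out a culture, control A among them (adjusted p = 0.0491), where the inhibitor gene Nfkbia was called too (0.30, adjusted p = 0.0393).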

How the data were processed

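Rat keratinocyte RNA (400 ng of total RNA per culture) was measured on Illumina RatRef-12 arrays. Per the file headers, each probe of the deposited table has a signal intensity and a detection p-value on every array. The authors' processed values, log2 by their range, were deposited separately with an unstated normalization and used as an alternative; 174 probes lack one. The submitters' processing notes name R 2.11 and limma without roles. Raw array medians were 95.9 to 117.7; the number of arrays limits precision.

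Background correction and quantile normalization used neqc (limma 3.58.1, R 4.3.3; offset 16), with negative controls inferred from detection p-values. Kept were 11255 named probes, and the brightest kept probe stood for a gene. Names were updated with the RefSeq GRCr8 table (10291 probes by symbol, 1642 by gene ID, 4978 by synonym; 5495 kept the file's name and 117 had none); Il36a, Il36b and Il36g were reached by synonym. Promoter windows were given for 9 of the 10 members.

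A single limma model held a mean per group (8 residual and 3.83 prior degrees of freedom), tested on simulated data. The members and lists were chosen with earlier results of these data known. Named were all members, listed genes that were called or lay at the extreme of a list, and the 3 genes most like each called member.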

Additional observations from a re-analysis of the deposited data

Results flagged for a closer look

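Il1rn is the member whose groups did not overlap in either UVB contrast, in opposite directions without and with betaine. All 3 UVB cultures were above all 3 controls, and all 3 cultures given betaine and UVB were below all 3 given betaine. This pattern was looked for among the members and the listed genes, and its share over all tested genes was not counted. The difference between the UVB effects on Il1rn with and without betaine was −1.25 ± 0.36 log2 units (unadjusted p = 0.00465, adjusted p = 0.574 over all tested genes, limma), so it did not pass the adjusted threshold. Without control A it was −0.91 (adjusted p = 0.884).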

How the results depend on the processing

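The number of members called was recomputed under the alternatives. Arrays scaled by their medians gave 0 calls for betaine vs control and 0 for UVB averaged over the betaine states. With no filter on detection there were 0 for betaine vs control, 0 for betaine + UVB vs betaine and 0 for UVB averaged. Fits of only the 2 groups compared gave 0 for UVB vs control, 0 for betaine vs control and 1 for betaine + UVB vs UVB (Il1rn). With the letters A to C as a replicate block there were 0 for betaine vs control, 2 for betaine + UVB vs betaine (Il1b and Il36a) and 1 for UVB averaged, which was Il1b, lower (−0.37, adjusted p = 0.0408), in place of Il1a (adjusted p = 0.0509). Deviations of same-letter cultures correlated between −0.38 and 0.34, with 8 of 18 pairs over 0.1. Pairs with different letters ran from −0.50 to 0.44, with 11 of 36 over 0.1. Outside control, same-letter pairs ran from 0.24 to 0.29 for B, 0.12 to 0.34 for C and −0.095 to −0.0035 for A. Same-letter pairs with a control ran from −0.38 to 0.28. Whether the letters mark paired cultures is thus not settled. Leaving out each culture gave 0 to 1 calls in each of the 4 comparisons of 2 groups, 0 to 2 for UVB averaged and 1 to 2 for betaine averaged. No called member reversed its direction. Casp1 with betaine averaged over the UVB states was called under all 19 alternatives (adjusted p 0.00641 to 0.0449), Il1a after UVB alone under 17 of 20, Il33 under 14 of 19, Il36a under 12 of 20, Il1a averaged under 7 of 19 and Casp1 with betaine alone under 5 of 20. Over all genes, median scaling moved the share of higher calls from 60.0 to 32.1 percent for UVB vs control, from 40.8 to 16.2 percent for betaine vs control and from 54.1 to 37.3 percent for UVB averaged, and the median of all genes in UVB vs control to −0.11; fits of only 2 groups called 7 genes for betaine vs control and 318 for betaine + UVB vs UVB. The within-array differences under other normalizations, and the pathway genes with a culture left out, were recomputed by choices made after seeing the data. Listed genes with no call over the 12 arrays were examined only in the fit without control A. Their calls with another culture left out are not given. Il1r1, Il1rap and Il1b are limited by signal near background.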
